A study of Mus musculus with 16 samples.

Results

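The comparison described here is that of mice given lipopolysaccharide (LPS) at puberty with mice given saline at puberty, all of them exposed to LPS before birth. It took 8 of the 16 whole-brain RNA libraries of the series, chosen by their labelled treatment alone: 4 of the group LPS-LPS and 4 of the group LPS-saline. All mice were C57BL/6, and each library came from the whole brain of 1 mouse at postnatal day 32. In both groups the pregnant dam had been injected intraperitoneally with LPS on gestation day 16, so the prenatal exposure is shared by every mouse compared. The offspring, described as male, then received an intraperitoneal injection at postnatal day 30, of LPS in the group LPS-LPS and of saline in the group LPS-saline. The remaining 8 libraries (saline-saline and saline-LPS, from dams given saline) served for the estimate of spread and for the test of whether the response to pubertal LPS differed with the prenatal injection. The first word of a group name was read as the prenatal injection, after the order of the treatment protocol, since the labels leave the order unstated. With the opposite order, the words prenatal and pubertal would change places. Litters are not given, so mice of both groups may share a dam, and the tests measure the spread between these mice.

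LPS is a component of the outer membrane of Gram-negative bacteria. It is bound by Lbp and Cd14, passed to the receptor pair Tlr4 and Ly96 (MD-2), and signals through the adaptor Myd88 to the transcription factor NF-kappaB, which drives cytokines, chemokines and its own inhibitor Nfkbia. In brain the genes of this pathway are carried mainly by microglia, vessel and border cells, and a systemic injection is classically followed by a brief wave of cytokine and immediate early transcripts. An early immune challenge followed by one later in life is known as a 2-hit design, and the question of this comparison is what the second injection added in brains already exposed before birth.

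The 8 libraries held between 25729919 and 38571036 reads assigned to genes, both extremes in LPS-saline, and 18875 genes passed the filter on low counts. Expression is given as library-scaled counts (CPM), and differences as log2 fold changes ± standard error (SE) from edgeR, with LPS-LPS over LPS-saline as the direction. The defining markers of brain cells were present in all libraries, among them the neuronal Rbfox3 at 342 to 390 CPM and the microglial P2ry12 at 13.3 to 17.6 CPM. A few libraries stood apart. LPS-LPS 3 held 503 CPM of Xist and 0 of Ddx3y, against its label of male offspring. LPS-LPS 1 held 503 CPM of the pituitary hormone gene Gh and 106 CPM of Prl, where the other 7 libraries held at most 1.51 CPM of Gh and 0.0777 CPM of Prl. Gabra6, a marker of cerebellar granule cells, was nearly absent from LPS-saline 1 and 2 and LPS-LPS 2 (0.0659 to 0.104 CPM), while the remaining 5 libraries held 2.51 to 52.7 CPM. Where leaving out LPS-LPS 3 turns a list median or moves it by over 1.5 times, the value without it is given. For single genes it is given in some cases only.

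A second injection of LPS was followed, 2 days later, by no difference in any gene that passed the adjusted threshold. Of the 18875 genes tested, 0 were called by edgeR's quasi-likelihood test (0% of genes, adjusted p under 0.05), and the smallest adjusted p was 0.193. At an unadjusted p under 0.05 there were 756 genes, of which 485 (2.57%) were higher and 271 (1.44%) lower in LPS-LPS, where 944 would be expected with no difference at all. That number was passed with the replicate number as a block (1008 genes), in the 8 libraries alone (1053) and with cerebellar signal as a covariate (1003). In 385 genes (2.04%) all 4 LPS-LPS values lay above all 4 LPS-saline values, and in 319 genes (1.69%) all 4 lay below. The 95% interval of the difference lay within 0.5 log2 units of 0 for 12947 genes (68.6%), and its median half-width was 0.22 log2 units. The median size of the log2 difference was 0.07, and the median difference itself 0.00.

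Other fits gave other counts. DESeq2 with the same design called 9 genes (0.0477%), all of them higher in LPS-LPS. A fit of the 8 libraries alone called 7 genes, and blocking that fit on the replicate number called 24, of which 20 were higher, while the block over all 16 libraries called 0. Without both LPS-LPS libraries 1 and 3, edgeR again called 0 genes, with 499 at an unadjusted p under 0.05.

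The 9 genes that DESeq2 called were Ftl1, Rn7sk, Rps28, Pet100, Mt3, Gm12473, Ost4, Atp5k and Rpl35. Their products are a ferritin chain, the 7SK RNA, a pair of ribosomal proteins, a pair of small mitochondrial proteins, a metallothionein, a subunit of the oligosaccharyltransferase and an antisense transcript. In each of the 9, every LPS-LPS library lay above every LPS-saline library, and in none did the adjusted p of edgeR's main fit pass the threshold. The edgeR fit of the 8 libraries alone did call Ftl1, Rpl35, Rps28, Atp5k and Pet100.

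Ftl1 encodes the light chain of ferritin, the protein shell that stores iron. Its level was 19.4, 18.3, 19.4 and 20.6 CPM in LPS-saline 1 to 4 and 28.9, 25.9, 31.4 and 27.7 CPM in LPS-LPS 1 to 4. The groups were separated by a gap wider than the range of LPS-saline, and both saline-dam groups lay with LPS-saline (17.0 ± 2.15 and 18.3 ± 2.73 CPM, SD, n = 4 each). The difference was 0.55 ± 0.10 log2 units (1.47-fold; edgeR adjusted p = 0.193, DESeq2 adjusted p = 0.00286). Without LPS-LPS 3 it was 0.50. Fth1, the heavy chain of the same shell, measured 1072 ± 62.0 CPM in LPS-saline mice against 1126 ± 79.9 CPM in LPS-LPS mice (SD, n = 4 each), a difference of 0.07 ± 0.08. Ftl1 (GRCm38 chr7:45457944-45459884, minus strand) has near-identical copies in the genome, and reads that align to several places were counted apart from genes, so its level is uncertain.

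The promoter stretch of Ftl1 and those of Mt1 and Atp5k are printed from 60 bases before to 30 bases after the annotated start. They were picked by hand as examples from the iron, metal and respiratory groups with a motif of a known regulator close to the start. The other members of these groups were not searched as a set, and Mt1 lies outside the leading genes searched below. Sequences are from RefSeq on GRCm38.p6, read 5′ to 3′ on the strand of the gene, with the motif in capitals. The motif in Ftl1 is the NF-kappaB consensus. That in Mt1 is the core of the metal response element, TGCACNC or TGCGCNC, and that in Atp5k is the palindromic NRF1 site, GCGCA followed by its reverse complement.
Ftl1, chr7:45459857-45459946, minus strand: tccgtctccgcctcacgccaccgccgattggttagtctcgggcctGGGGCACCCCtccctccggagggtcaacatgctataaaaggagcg
Mt1, chr8:94179029-94179118, plus strand: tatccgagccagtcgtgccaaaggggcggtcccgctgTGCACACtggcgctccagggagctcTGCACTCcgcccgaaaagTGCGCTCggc
Atp5k, chr5:108434370-108434459, minus strand: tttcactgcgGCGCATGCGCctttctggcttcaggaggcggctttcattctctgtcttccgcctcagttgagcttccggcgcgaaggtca
Over 32851 RefSeq promoters of 300 bases, searched on both strands, 8.46% held the NF-kappaB consensus, 25.7% the metal response element and 0.971% the NRF1 site. Of 12 leading genes of this comparison, 10 were matched to a promoter: 1 (Ftl1) held the first, 2 (Mt3 and Ost4) the second and 1 (Atp5k) the third. A match is a run of letters and not evidence of binding.

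Mt3 encodes a metallothionein that binds zinc and copper and is abundant in brain. It stood at 349, 284, 310 and 337 CPM in LPS-saline 1 to 4 and at 410, 393, 449 and 392 CPM in LPS-LPS 1 to 4. All LPS-LPS values lay above all LPS-saline values, by 0.36 ± 0.07 log2 units (1.29-fold; edgeR adjusted p = 0.238, DESeq2 adjusted p = 0.0222). Mt1, the stress-inducible metallothionein, measured 197, 180, 192 and 183 CPM in LPS-saline mice against 200, 214, 233 and 219 CPM in LPS-LPS. Its groups did not overlap either, with a difference of 0.20 ± 0.07, and after prenatal saline pubertal LPS gave 0.25 for the same gene. Of the 17 tested genes of the list of iron, ferritin and metallothionein genes, 3 were higher and 0 lower at an unadjusted p under 0.05, and those 3 (17.6%, against 2.57% of all genes) were Ftl1, Mt3 and Mt1. The median of the list was 0.04, and 0.01 without LPS-LPS 3.

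**Figure D1:**
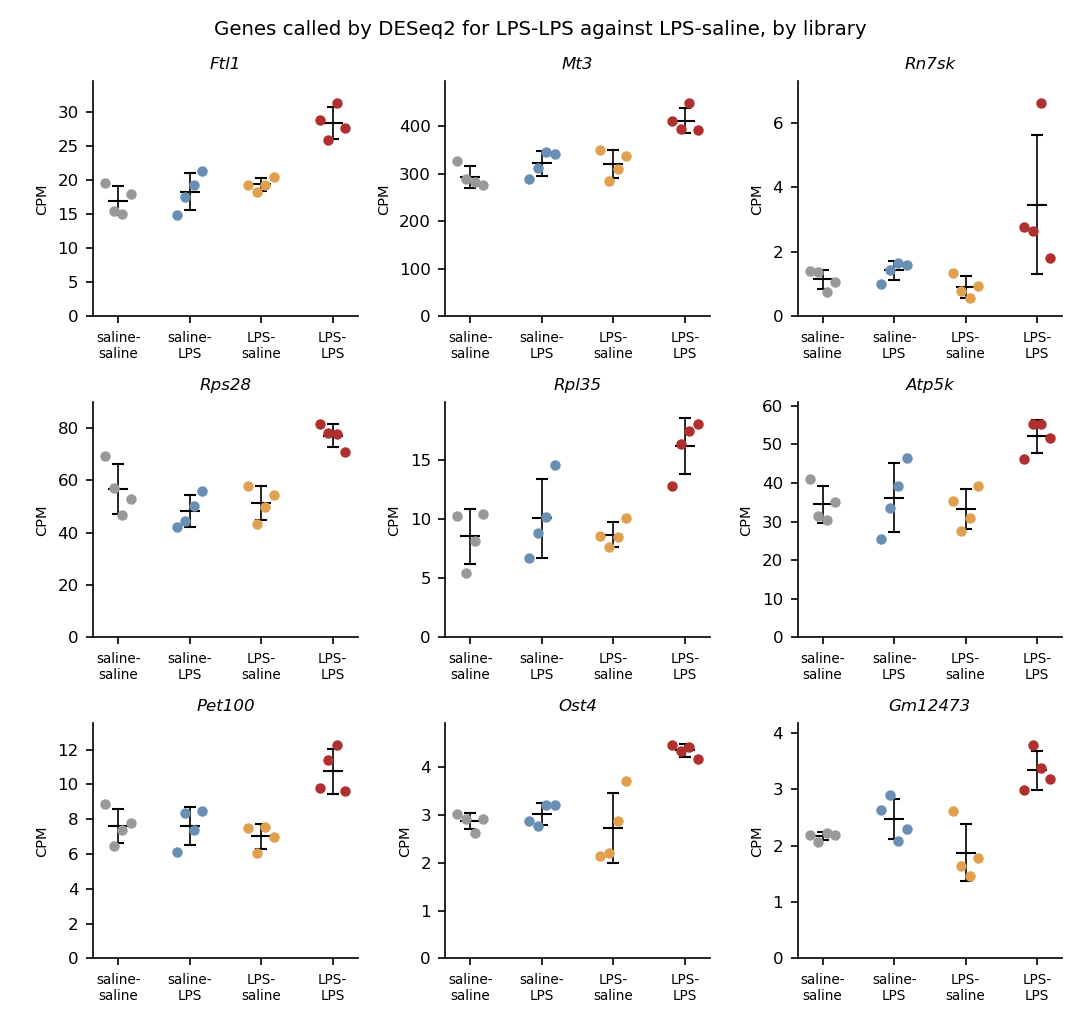
Scaled expression (CPM, linear axes from 0) of the 9 genes called by DESeq2 in each of the 16 libraries, by group; points are mice, the horizontal bar is the mean and the whiskers are 1 SD (n = 4). In every panel the 4 LPS-LPS points lie above the 4 LPS-saline points, as for Ftl1 (25.9 to 31.4 against 18.3 to 20.6 CPM).

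Rn7sk is the 7SK small nuclear RNA, which holds the elongation factor P-TEFb inactive together with Hexim1, Larp7 and the capping enzyme Mepce. Its 331 bases lie at GRCm38 chr9:78175303-78175633 on the minus strand. The first 100 bases, from the GENCODE M21 transcript, are printed because they hold the stem-loop that binds HEXIM proteins, with the 3 GATC runs of that region in capitals.
Rn7sk, chr9:78175534-78175633, minus strand: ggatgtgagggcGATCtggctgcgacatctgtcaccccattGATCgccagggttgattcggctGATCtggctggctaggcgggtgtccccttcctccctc
The level was 1.36, 0.777, 0.564 and 0.927 CPM in LPS-saline 1 to 4 and 2.76, 2.63, 6.61 and 1.82 CPM in LPS-LPS 1 to 4. LPS-LPS 3 stood far above the other 3, and the groups did not overlap. The log2 difference was 1.95 ± 0.36 (3.86-fold; edgeR adjusted p = 0.193, DESeq2 adjusted p = 0.000953) and 1.42 without LPS-LPS 3. Its protein partners did not share the pattern: Hexim1 stood at 77.7 to 85.9 CPM in LPS-saline and 69.7 to 80.0 CPM in LPS-LPS, and Larp7 at 16.0 to 18.5 and 16.3 to 18.4 CPM. Rpph1, the RNA of ribonuclease P, was at 0.136 to 0.285 CPM in LPS-saline and at 0.412, 0.560, 3.80 and 0.529 CPM in LPS-LPS 1 to 4. Its log2 difference was 2.83 ± 0.73 with and 1.43 without LPS-LPS 3. The small nucleolar RNA Snord104 stood at 0.803 to 1.39 CPM in LPS-saline and 1.84 to 2.09 CPM in LPS-LPS. These were the 3 members at an unadjusted p under 0.05 among 14 tested genes of the list of the 7SK complex and small structural RNAs. Their share was 21.4%, against 2.57% of all genes. Such RNAs lack a poly(A) tail. On an added list of replication-dependent histone genes, another class without the tail, 0 of 11 tested were higher and 0 lower at an unadjusted p under 0.05. The median of that list was -0.08. The share of RNAs without a tail in a library depends on how it was prepared, which was not tested.

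Ribosomal protein genes gave the next group. Rps28, a protein of the small subunit, stood at 57.8, 43.2, 49.9 and 54.5 CPM in LPS-saline 1 to 4 and at 81.6, 78.1, 77.9 and 71.0 CPM in LPS-LPS 1 to 4. Every LPS-LPS value exceeded every value of the other 3 groups, whose highest was 69.4 CPM in saline-saline 1. The difference was 0.59 ± 0.11 log2 units (edgeR adjusted p = 0.193, DESeq2 adjusted p = 0.00311). Rpl35, of the large subunit, was at 8.58, 7.62, 8.49 and 10.2 CPM against 12.8, 16.4, 17.5 and 18.1 CPM, a difference of 0.90 ± 0.22. Rps29, also of the small subunit, was at 111, 75.5, 91.8 and 115 CPM against 144, 172, 165 and 147 CPM, a difference of 0.68 ± 0.16. In both genes the groups did not overlap, and the second libraries of the 2 groups lay farthest apart for Rps29. Of all 81 ribosomal protein genes tested, 20 were higher and 0 lower at an unadjusted p under 0.05 (24.7%, against 2.57% of all genes). In 15 of them every LPS-LPS value lay above every LPS-saline value, as in 2.04% of all genes. The median difference was 0.06, or 0.02 without LPS-LPS 3, and after prenatal saline it was also 0.06. The members were not alike: of 37 with coding sequences of up to 450 bases, 17 were higher, and of 44 longer ones, 3. Rpl3, with 1209 coding bases, differed by 0.06, Rplp0 by 0.06 and Rps4x by 0.05. Ribosomal protein genes have many processed copies, so counts of uniquely aligned reads are uncertain for all of them.

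Genes of the respiratory chain and single factors of its assembly followed. Atp5k, subunit e of the ATP synthase, stood at 35.4, 27.6, 30.9 and 39.3 CPM in LPS-saline 1 to 4 and at 46.3, 55.3, 55.2 and 51.7 CPM in LPS-LPS 1 to 4. The lowest LPS-LPS value lay above the highest LPS-saline value, and the difference was 0.65 ± 0.15 (edgeR adjusted p = 0.747, DESeq2 adjusted p = 0.0347). Pet100, a factor for the assembly of cytochrome c oxidase, was at 7.49, 6.04, 7.56 and 6.95 CPM against 9.77, 11.4, 12.3 and 9.60 CPM, a difference of 0.62 ± 0.12. Cox7c, a subunit of that oxidase, measured 114 to 143 CPM in LPS-saline mice against 157 to 175 CPM in LPS-LPS mice, a difference of 0.35 ± 0.10. Ndufb8 of complex I gave 0.39 ± 0.11, and Sdhaf1, an assembly factor of complex II named here after its values were seen, 1.67 ± 0.36 at 0.259 to 0.536 CPM against 0.888 to 1.71 CPM. On a list of mitochondrial complex assembly, added after the others, 2 of 24 tested genes were higher and 0 lower at an unadjusted p under 0.05. They were Pet100 and Sdhaf1 (8.33%, against 2.57% of all genes). The median of that list was 0.05, or 0.02 without LPS-LPS 3. Of 39 nuclear genes of the chain, 10 were higher and 0 lower at an unadjusted p under 0.05 (25.6%, against 2.57% of all genes), with a median of 0.08, or 0.04 without LPS-LPS 3. The 12 tested mitochondrially encoded genes had a median of 0.09, which was 0.00 with an offset for GC content and length, and 1 of them, mt-Nd1, was at an unadjusted p under 0.05, at 3510 to 3775 CPM against 3811 to 4178 CPM.

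In the endoplasmic reticulum, 2 small subunits of the oligosaccharyltransferase, the enzyme that attaches sugar chains to new proteins, stood out in the same way. Ost4 was at 2.14, 2.20, 2.88 and 3.71 CPM in LPS-saline 1 to 4 and at 4.47, 4.35, 4.43 and 4.17 CPM in LPS-LPS 1 to 4, a difference of 0.68 ± 0.15 (edgeR adjusted p = 0.346, DESeq2 adjusted p = 0.0461). Tmem258 was at 17.3 to 18.6 CPM against 22.2 to 23.7 CPM, a difference of 0.35 ± 0.08. The LPS-LPS libraries were close to each other for both genes, whereas for Ost4 LPS-saline ran upward to 3.71 CPM in library 4. Of 19 genes of this enzyme and the translocon, a list made after the values of these 2 were seen, 5 were higher and 0 lower at an unadjusted p under 0.05 (26.3%, against 2.57% of all genes). The 5 include Ost4 and Tmem258, so part of this share was fixed by the choice of list. The list median was 0.02. In 3 of its genes all LPS-LPS values lay above LPS-saline and in 1 all lay below (2.04% and 1.69% of all genes). Gm12473, an antisense transcript at the Npr2 locus, was at 1.47 to 2.61 CPM against 2.98 to 3.79 CPM. The strand setting of the counting is not given in the sources used here, and Gm12473, Pet100 (with Pcp2), Ost4 (with Agbl5), Rps28 (with Kank3) and Ftl1 (with Gm10252) overlap a gene on the opposite strand, so reads of the partners may not be separated.

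Most of these genes encode very short proteins, a feature noticed after the values were seen. Genes were therefore grouped by coding length, as a description. Of 290 tested genes with at most 300 coding bases, 49 were higher and 1 lower in LPS-LPS at an unadjusted p under 0.05: 16.9% were higher, against 2.57% of all genes, and their median difference was 0.07. The share of higher genes was 6.08% at 300 to 600 coding bases, 2.34% at 600 to 1200, 1.32% at 1200 to 2400, 0.779% at 2400 to 4800 and 0.392% beyond. Leaving out the ribosomal protein genes, 40 of 281 short genes were higher and 1 lower (14.2%). They included Tomm7 of the mitochondrial import channel, Snrpg of the spliceosome, the copper chaperone Atox1 and Nop10 of small nucleolar particles, with differences of 0.31, 0.32, 0.24 and 0.30.

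By library, the mean of the 290 short genes, each centred on its mean over all 16 libraries, was 0.02, -0.07, 0.03 and 0.03 log2 units in LPS-saline 1 to 4 and 0.08, 0.07, 0.13 and 0.05 in LPS-LPS 1 to 4. The 4 LPS-LPS libraries lay above the 4 of LPS-saline, although saline-LPS 3 and 4 reached 0.05 as well. Between same-numbered libraries the difference was 0.05, 0.14, 0.10 and 0.03. Leaving out LPS-LPS 3 gave a share of 11.7% (1.99% of all genes), and leaving out LPS-saline 2 gave 11.0% (2.32%). Leaving out LPS-LPS 1 and 3 together gave 8.28% (1.61%). In the libraries at or above 1 CPM of Gabra6 the share was 17.6%, with 51 short genes higher and 7 lower. There the share of all genes was 6.06%, so the excess of short genes was smaller. Below 1 CPM, where LPS-LPS 2 is the only library of its group, the median difference of the short genes was 0.08.

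Transcript length moved with this result. Across genes, the log2 difference correlated with exonic length at a Spearman coefficient of -0.18, and each library's own departure from the series mean had coefficients with length of -0.17 to -0.01 in LPS-saline and -0.27 to -0.14 in LPS-LPS, so that these ranges overlap. Genes of 1 library share its depth and fragment sizes and are not independent. With an offset for GC content and exonic length in each library, the overall coefficient was 0.01 and the short genes had a median difference of 0.03, in place of 0.07, and a share of higher genes of 12.8%. Over all genes it was then 2.45% higher and 1.88% lower. RNA integrity and fragment size of the libraries were not analysed here, and their part in the result was not tested.

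**Figure D2:**
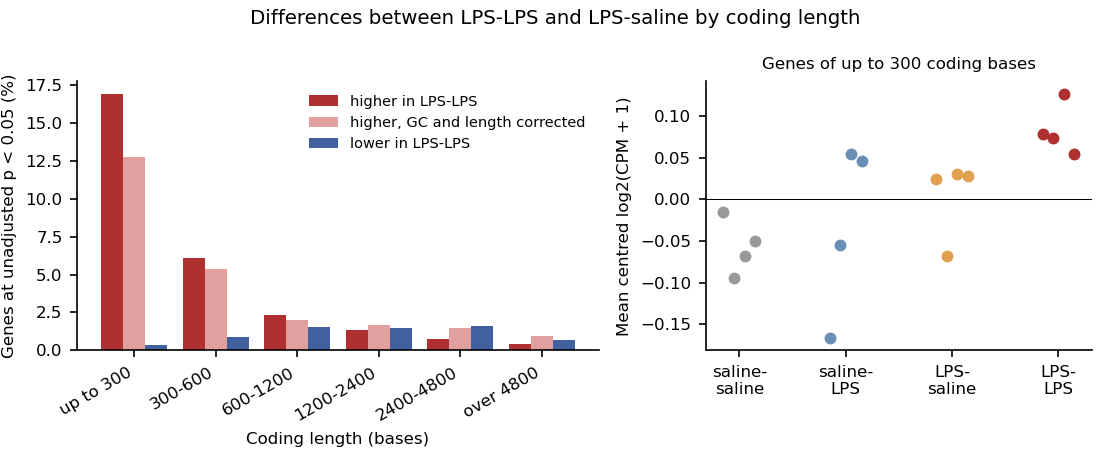
Left, the percentage of tested genes at an unadjusted p under 0.05 by coding length in bases: higher in LPS-LPS, higher after an offset for GC content and length, and lower in LPS-LPS. Right, the mean of the 290 genes of up to 300 coding bases in each library (log2(CPM + 1), centred on the mean of all 16 libraries); the LPS-LPS points run from 0.05 to 0.13 and those of LPS-saline from -0.07 to 0.03.

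Beyond the short genes, 2 nuclear factors were among the leading differences. Neurog2, a proneural transcription factor, stood at 2.31, 2.20, 1.55 and 1.74 CPM in LPS-saline 1 to 4 and at 3.27, 3.19, 2.97 and 2.65 CPM in LPS-LPS 1 to 4. Drap1, a subunit of the general transcription repressor NC2, was at 146 to 174 CPM against 180 to 204 CPM. Neither gene's groups overlapped, and the differences were 0.63 ± 0.15 and 0.27 ± 0.07 (edgeR adjusted p = 0.738 and 0.747).

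Among genes lower in LPS-LPS, the 10 named by rule differed by -0.48 to -0.16. Rybp, a partner of Polycomb repressive complexes, stood at 23.1, 26.0, 23.7 and 26.0 CPM in LPS-saline 1 to 4 and at 20.5, 21.9, 19.0 and 20.5 CPM in LPS-LPS 1 to 4, a difference of -0.27 ± 0.08. Ubap1l was at 8.34, 7.31, 9.14 and 9.04 CPM against 6.57, 6.72, 6.61 and 6.65 CPM, a difference of -0.35 ± 0.10. The 4 LPS-LPS mice lay close together for Ubap1l, and no LPS-LPS value reached the lowest LPS-saline value in either gene. Scube2, a secreted protein of hedgehog release, gave the largest difference of these 10, -0.48 ± 0.15 at 2.64 to 3.06 against 1.81 to 2.19 CPM. The others were Ppp2r1b (a scaffold of protein phosphatase 2A), the kinase Prkx, Rtl8a, the semaphorin Sema6a, Dnajc28, Lins1 and the RhoA regulator Arhgap29, with differences from -0.30 to -0.16. Their edgeR adjusted p-values ran from 0.817 to 0.899.

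The pathway of LPS itself showed no called gene in any of its parts. Of 23 tested genes of LPS reception and signalling, 1 was higher (4.35%, against 2.57% of all genes) and 1 lower at an unadjusted p under 0.05. The median difference was -0.04, or -0.07 without LPS-LPS 3. Tlr4, the receptor, was at 1.46, 1.40, 1.30 and 1.74 CPM in LPS-saline 1 to 4 and at 1.62, 1.22, 2.15 and 0.728 CPM in LPS-LPS 1 to 4. The LPS-LPS mice spanned all values of the other group, and the difference was -0.03 ± 0.25, with a 95% interval from -0.54 to 0.48. Over 32 alternative settings the Tlr4 difference ran from -0.68 to 0.18 and changed sign in 4. Cd14 (-0.06), Ly96 (0.16) and Myd88 (-0.10) overlapped between the groups as well. Lbp, which carries LPS to Cd14, was the higher gene: 6.17 to 7.78 CPM against 8.07 to 8.86 CPM, a difference of 0.31 ± 0.11, and after prenatal saline the difference was 0.27.

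Cytokines were near the floor of detection. Of 23 listed cytokines and chemokines, 10 passed the filter, 0 of them at an unadjusted p under 0.05. The 4 libraries of each group together held 25 reads of Il1b in LPS-saline and 46 in LPS-LPS, 5 and 6 of Tnf, 4 and 4 of Il6, and 19 and 9 of Ccl2. Il1b lay at 0.203, 0.0777, 0.310 and 0.193 CPM in LPS-saline 1 to 4 and at 0.317, 0.197, 0.411 and 0.562 CPM in LPS-LPS 1 to 4, so the groups overlapped. These 4 genes fell below the filter on low counts and were not part of the main test. One read stood for 0.0259 to 0.0389 CPM in these libraries, and at 4 to 6 reads per group small differences in Tnf or Il6 are out of reach. Cxcl10, a chemokine induced by interferon, was at 0.0773 to 0.576 CPM against 0.0993 to 0.917 CPM, with LPS-LPS 3 the highest of the 8, and its difference was 0.25 with and -0.61 without that library.

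NF-kappaB target and feedback genes had a list median of 0.06. Of 18, 2 were higher at an unadjusted p under 0.05 (11.1%, against 2.57% of all genes). They were Cebpb, a transcription factor of acute inflammation (0.46 ± 0.18), and Birc3, an inhibitor of cell death (0.40 ± 0.17), and in both the groups overlapped. Nfkbia was at 16.7 to 18.1 CPM against 17.1 to 20.1 CPM, a difference of 0.13 ± 0.09. The acute-phase genes Lcn2 and Saa3 overlapped widely: Lcn2 measured 0.746, 1.19, 0.479 and 0.657 CPM in LPS-saline mice against 0.729, 0.626, 0.538 and 0.926 CPM in LPS-LPS mice, and Saa3 at 0.509, 0.518, 2.96 and 0.888 CPM against 1.24, 1.65, 0.728 and 1.85 CPM. In both saline-dam groups Saa3 lay at 0.0473 ± 0.0632 and 0.0234 ± 0.0469 CPM (SD, n = 4 each), below both groups of this comparison. B2m, the light chain of MHC class I, showed the same order: 58.3 ± 2.70 and 59.1 ± 4.07 CPM without prenatal LPS, 86.7 ± 7.71 CPM in LPS-saline and 92.7 ± 7.67 CPM in LPS-LPS (SD, n = 4 each). The step added by pubertal LPS was 0.10 ± 0.07 for B2m, 0.11 ± 0.13 for the class I heavy chain H2-K1 and 0.22 ± 0.11 for the lysozyme gene Lyz2. For B2m its 95% interval ran from -0.05 to 0.24.

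**Figure D3:**
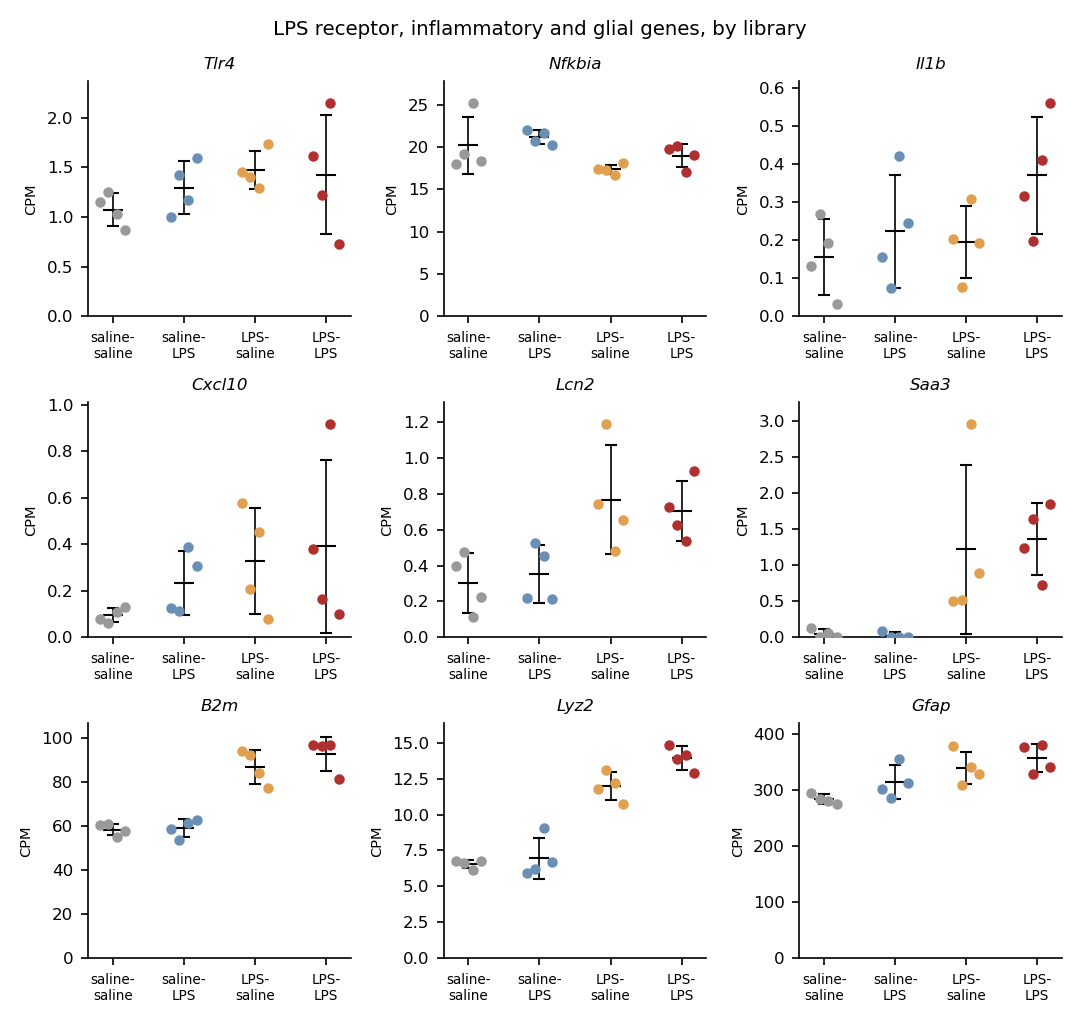
Scaled expression (CPM, linear axes from 0) of the LPS receptor gene Tlr4, inflammatory genes and glial genes in each of the 16 libraries, by group; points are mice, the horizontal bar is the mean and the whiskers are 1 SD (n = 4). The LPS-saline and LPS-LPS points overlap in all 9 panels, as for Gfap (309 to 377 against 328 to 380 CPM).

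Interferon-stimulated genes had a median of 0.04, which turned to -0.05 without LPS-LPS 3. Of 45, 2 were higher (4.44%, against 2.57% of all genes) and 0 lower at an unadjusted p under 0.05. Ifitm2, a membrane protein that restricts virus entry, was at 0.881, 0.907, 0.874 and 1.04 CPM in LPS-saline 1 to 4 and at 1.43, 1.68, 1.39 and 1.16 CPM in LPS-LPS 1 to 4, a difference of 0.61 ± 0.19. All 4 LPS-LPS values lay above LPS-saline, although Isg15 (-0.15), Irf7 (-0.05) and Ifi27l2a (0.00) did not go with it. The 18 MHC class I genes had a median of 0.06 (0.01 without LPS-LPS 3) and the 18 complement genes 0.07, and 0 genes of either list were at an unadjusted p under 0.05. After prenatal saline the medians were 0.03 for MHC class I and 0.11 for complement.

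Microglial genes showed small differences. Genes of activated microglia and lysosomes had a median of 0.05, or 0.02 without LPS-LPS 3, and of 30, 3 were higher and 0 lower at an unadjusted p under 0.05: Cst7, an inhibitor of lysosomal proteases (1.54 ± 0.48), Cyba, a subunit of the NADPH oxidase (0.28 ± 0.11), and the protease gene Lgmn (0.11 ± 0.05). Cst7 was at 0.0678, 0.181, 0.113 and 0.155 CPM against 0.254, 0.593, 0.506 and 0.199 CPM, and the groups did not overlap at these low levels. Aif1 (Iba1) overlapped at 4.29 to 5.97 against 5.10 to 6.55 CPM, as did Trem2 and Tmem119. In a whole brain, fewer cells of a type and less RNA per cell cannot be told apart. The MHC class II and border macrophage list had 14 of 16 genes above 0 and a median of 0.09, with 0 at an unadjusted p under 0.05. The meningeal list had 12 of 16 above 0 and a median of 0.10, with 2 higher (12.5%, against 2.57% of all genes). After prenatal saline the medians of the border macrophage and meningeal lists were larger, 0.22 and 0.18.

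Other brain lists leaned one way without a gene called in the main fit. Of 20 genes of the blood-brain barrier endothelium, 3 were above 0 and the median was -0.11. The centred list mean was 0.11, 0.22, -0.13 and -0.18 log2 units in LPS-saline 1 to 4. In LPS-LPS 1 to 4 it was 0.01, 0.05, -0.24 and -0.29, each below the same-numbered library, though the groups overlapped. The endothelial marker Flt1 was called lower in the 8-library fit blocked on replicate number (-0.37, edgeR adjusted p = 0.0163). Cldn5, a tight-junction protein, stood at 53.2, 60.3, 35.3 and 33.3 CPM in LPS-saline 1 to 4 and at 38.6, 35.4, 39.9 and 31.7 CPM in LPS-LPS 1 to 4, so that LPS-saline 1 and 2 alone lay above the rest. Those are also 2 of the 3 libraries with under 1 CPM of Gabra6. After prenatal saline the list's median was -0.14. Immediate early genes had 4 of 22 members above 0 and a median of -0.12, against 0.00 after prenatal saline. Their centred list mean was 0.22, 0.38, -0.05 and -0.31 log2 units in LPS-saline 1 to 4. In LPS-LPS 1 to 4 it was -0.00015, -0.09, -0.12 and 0.04, within the range of LPS-saline. Of the 22 genes, Jund was higher (0.20 ± 0.07) and Dusp6, a phosphatase of the ERK pathway, lower (-0.28 ± 0.11) at an unadjusted p under 0.05. Within the libraries under 1 CPM of Gabra6, where only LPS-LPS 2 remains of its group, 3 genes were called lower: Btg2, Junb and Nr4a1. In libraries at or above 1 CPM, Btg2 stood at 14.1 to 16.1 CPM in LPS-saline 3 and 4 and at 13.1 to 40.4 CPM in LPS-LPS 1, 3 and 4, so the lower level was not shared.

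Myelin genes had 7 of 24 members above 0 and a median of -0.07. Circadian clock genes had 2 of 17 above 0 with a median of -0.04 (-0.02 without LPS-LPS 3), and glutamate synapse genes had a median of 0.01 (0.03 without it), with Syp, a synaptic vesicle protein, at 890 to 929 CPM against 969 to 1028 CPM. Glucocorticoid-responsive genes had a median of 0.14, and 2 of 17 were higher, Mt1 and Sult1a1 (11.8%, against 2.57% of all genes). The neutrophil and erythroid lists each held 1 gene lower at an unadjusted p under 0.05, and the lymphocyte list (5 tested) held 0. They were Ltf of neutrophil granules (-1.15 ± 0.42) at 0.339 to 1.55 against 0.222 to 0.596 CPM, and Slc4a1, the erythrocyte anion exchanger (-1.26 ± 0.60), at 0.0678 to 0.657 against 0.132 to 0.253 CPM. The groups overlapped in both. Pituitary genes had a median of 1.38 over 7 tested, with LPS-LPS 1 alone at 188 CPM of Pomc and the other 7 libraries at 3.99 to 5.63 CPM.

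**Figure D4:**
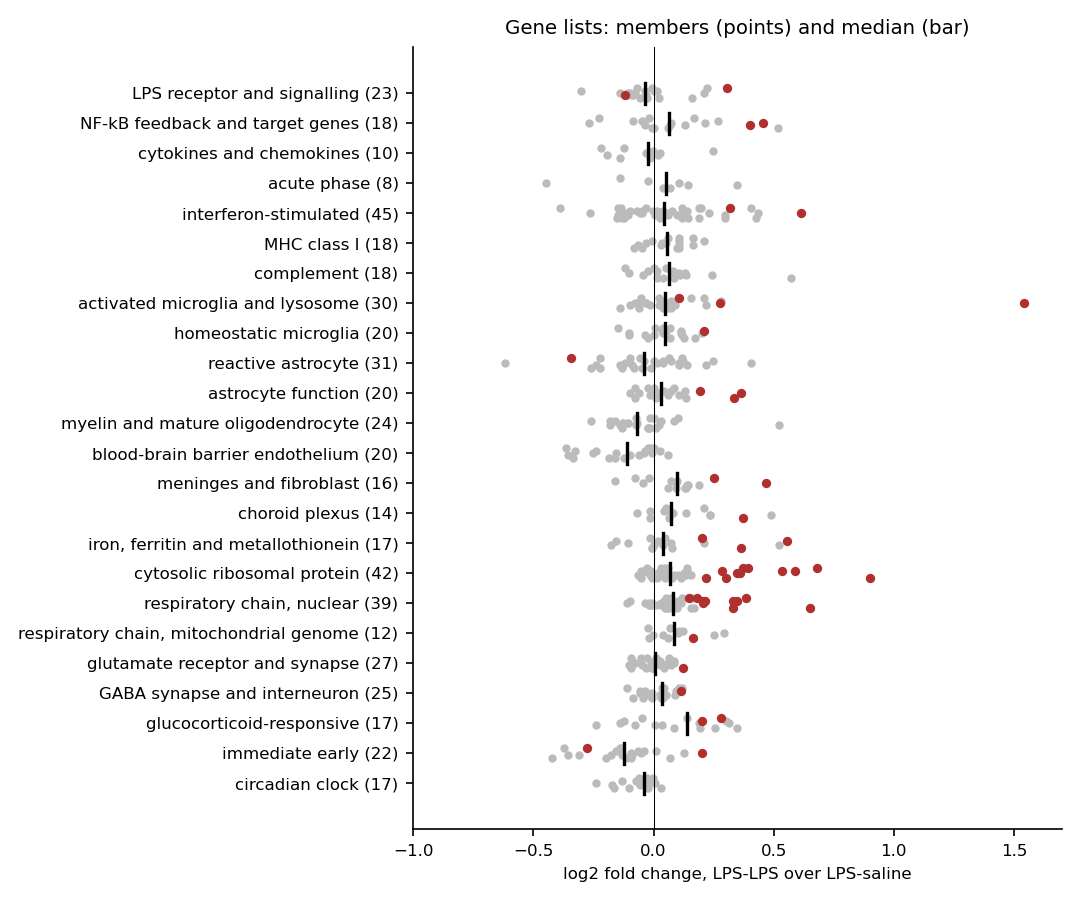
Log2 fold change of LPS-LPS over LPS-saline for the tested members of 24 gene lists (number tested in brackets); each point is a gene, red where the unadjusted p is under 0.05, and the black bar is the median. The medians run from -0.12 for immediate early genes to 0.14 for glucocorticoid-responsive genes, and the lists with the most red points are those of cytosolic ribosomal proteins (11 of 42) and the nuclear respiratory chain (10 of 39).

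Whether the response to pubertal LPS differed with the prenatal injection was tested as an interaction, the difference after prenatal LPS minus that after prenatal saline. edgeR called 0 genes (0%), with 251 (1.33%) higher and 151 (0.8%) lower at an unadjusted p under 0.05 and a smallest adjusted p of 0.887. DESeq2 called 1 gene, Rps28. Its level was 56.5 ± 9.53 CPM in saline-saline and 48.2 ± 6.16 CPM in saline-LPS, and 51.4 ± 6.32 CPM in LPS-saline and 77.2 ± 4.45 CPM in LPS-LPS (SD, n = 4 each). The interaction was 0.82 ± 0.16 log2 units (95% interval 0.49 to 1.15; edgeR adjusted p = 0.887, DESeq2 adjusted p = 0.0151).

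The other genes named for the interaction had estimates of opposite sign in the 2 backgrounds, and none passed. The estimates for Pet100 after prenatal saline and Colec12 after prenatal LPS were small, and the latter changed sign in 2 of 32 settings. Pet100 differed by 0.62 after prenatal LPS and -0.01 after prenatal saline. Mbd2, a reader of methylated DNA, differed by 0.11 and -0.31, Slc9a4, a sodium-proton exchanger, by 0.32 and -0.78, and Id4, an inhibitor of bHLH factors, by 0.20 and -0.18. On the lower side Rtl8a differed by -0.30 and 0.11, Ubap1l by -0.35 and 0.10, and the scavenger receptor gene Colec12 by -0.06 and 0.32. For the genes of up to 300 coding bases, the share higher at an unadjusted p under 0.05 was 16.9% after prenatal LPS and 3.79% after prenatal saline, and the medians were 0.07 and 0.04. The difference between these shares was not tested. Over all genes, in either direction, 756 and 535 were at an unadjusted p under 0.05. After prenatal saline the share of higher genes also fell with coding length, to 0.131% beyond 4800 bases. Across all 18875 genes the log2 differences of the 2 backgrounds, which share no library, correlated at a Pearson coefficient of 0.13 and a Spearman coefficient of 0.16, with exonic length related to both (-0.18 and -0.17).

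**Figure D5:**
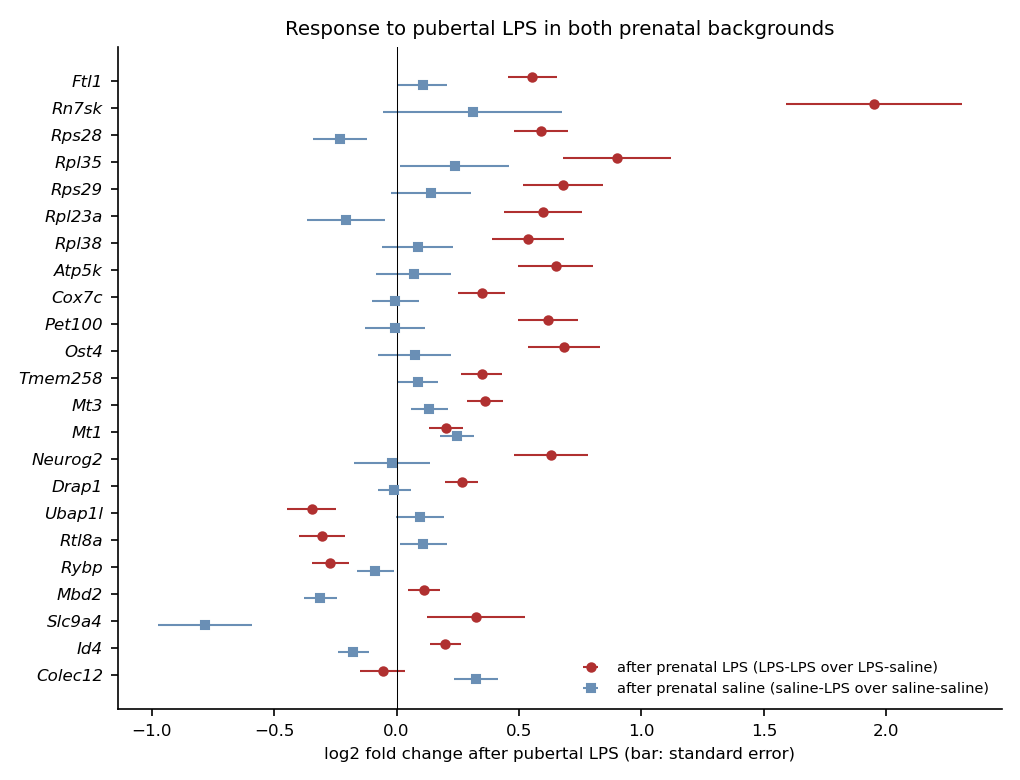
Log2 fold change after pubertal LPS (x axis, whiskers are 1 standard error) for 23 named genes, after prenatal LPS (red circles) and after prenatal saline (blue squares). For Rps28 the values are 0.59 and -0.23, and for Mt1, where they are nearly the same, 0.20 and 0.25.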

How the data were processed

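RNA of whole brain was sequenced from 16 mice, 1 library each. Per the submitters' processing notes, the authors used GRCm38 with STAR 2.5.2b as aligner and HTSeq 0.11.2 as counter, and deposited unnormalized counts of whole reads for 49671 Ensembl genes. How strand was set, which annotation release served and how reads were filtered is not given in the sources used here. Another 5 entries of each file name no gene and entered neither library sizes nor tests. In the 8 libraries compared, these took up 8.37 to 9.72% of counts as reads outside genes, 5.21 to 5.48% as reads of several genes and 3.28 to 3.71% as reads with several alignments. Symbols, lengths and GRCm38 coordinates came from GENCODE M21, which matched 49412 identifiers and left 259 unmatched.

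Counts were tested with edgeR 4.0.16 in R 4.3.3: filterByExpr by group, TMM scaling and a robust quasi-likelihood fit of the 4 groups in all 16 libraries, with two-sided p-values and Benjamini-Hochberg adjustment over 18875 genes at 0.05. The biological coefficient of variation was 10.4%. The 95% intervals came from the same fit. DESeq2 1.42.0 was an alternative, and the script was tested on simulated data. These intervals include the spread between mice, whereas the value of 1 read in CPM bears on counting error only.

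Replicate numbers come from the labels. Over 15230 genes, same-numbered libraries of LPS-LPS and LPS-saline deviated from their group means together, with correlations of 0.204, 0.363, 0.156 and 0.289. All were over 0.1, the limit set for pairs. The best partner did not always have the same number. LPS-LPS 3 correlated best with LPS-saline 4, LPS-saline 1 with LPS-LPS 2, and LPS-saline 3 with LPS-LPS 4. What the number marks was therefore not settled. The main fit has no block, and counts from the blocked fit are given beside its own where they differ. No 2 libraries of a group agreed within sampling noise.

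The comparison and the gene lists were chosen with earlier results of these data known, so no test over a list is given. Named genes were every called gene, those called by DESeq2, the 10 higher and 10 lower annotated genes with the smallest p among those whose groups did not overlap and whose mean reached 1 CPM, up to 3 members of each list by p, 14 LPS-response and glial genes named always, and the 5 higher and 5 lower genes of the interaction by p. Other genes named, such as Sdhaf1, Rpl3, Tomm7 and Btg2, were chosen after their values were seen.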

Additional observations from a re-analysis of the deposited data

Results flagged for a closer look

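In 162 sets of 4 libraries (76 of single genes and 86 of list means), the highest or lowest library was checked for a gap to its neighbour of more than 0.829 of the range, and 9 stood apart. Chance alone gives about 1 in 20.

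Among single genes, Scube2 was high in LPS-saline 2 at 3.06 CPM, with the others at 2.64 to 2.71 CPM. Id4 was high in LPS-saline 1 at 92.6 CPM, with the others at 80.5 to 82.2 CPM. Saa3 was high in LPS-saline 3 at 2.96 CPM, with the others at 0.509 to 0.888 CPM. B2m was low in LPS-LPS 4 at 81.2 CPM, with the others at 96.4 to 96.7 CPM. Colec12 was low in LPS-LPS 1 at 9.48 CPM, with the others at 11.1 to 11.2 CPM.

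Among list means, centred on the mean of all libraries in log2 units, complement genes were low in LPS-LPS 4 at -0.0050, with the others at 0.17 to 0.18. Oxidative stress genes were high in LPS-LPS 3 at 0.11, with the others at -0.01 to 0.01. Pituitary genes were high in LPS-LPS 1 at 2.41, with the others at -0.30 to -0.26. The sex-linked genes were low in LPS-LPS 3 at -2.58, with the others at 0.09 to 0.20.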

How the results depend on the processing

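The number of genes called in the main comparison was 0 and became 9 with DESeq2, 4 without a filter on low counts, 7 in the 8 libraries alone, 1 with cerebellar signal as a covariate, 3 within the libraries under 1 CPM of Gabra6 and 21 within those at or above it. Leaving out 1 library gave 0 to 2: Gm12473 without LPS-saline 1, Ost4 and Gm1821 without LPS-saline 4, and Ftl1 without saline-LPS 1. With the replicate number as a block, 24 genes were called in the 8 libraries and 0 in all 16, and the interaction stayed at 0. The number at an unadjusted p under 0.05 was 756 and became 1295 without the filter, 1625 with the replicate block in the 8 libraries, 464 and 2133 within the libraries under and at or above 1 CPM of Gabra6, and 604 to 987 with 1 library left out. Genes whose groups did not overlap numbered 704 and became 13402 and 5765 within those same 2 subsets, and 698 to 1483 with 1 library left out, as fewer libraries separate more easily. In 2 alternatives chosen after seeing the data, without LPS-LPS 1 and 3 and without libraries 1 and 3 of both groups, 499 and 427 genes were at an unadjusted p under 0.05 and 2304 and 5505 did not overlap. Genes called by the interaction were 1 with DESeq2 and 0 with any 1 library left out. Of the named genes, Ftl1 was called in 7 settings, Mt3, Pet100 and Rps28 in 4 each and Rpl35 in 3. No value called in a setting had the sign opposite to that of the main fit. Gadd45g, called at 0.53 in the libraries at or above 1 CPM of Gabra6, ran down to -0.10 in another setting. Where no construction of the setting shows it, the cause was not tested. Depth limited Tnf, Il6 and Ccl2, at 4 to 19 reads per group.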
